A study of Nothobranchius furzeri with 185 samples.

Results

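Livers of turquoise killifish (Nothobranchius furzeri, a short-lived annual fish) that were 27 weeks old and had received rotenone were compared with livers of 9-week-old fish that had received only the solvent. The comparison uses 10 of the 185 RNA-seq libraries of the series, chosen by their labels: 5 livers labelled 27 weeks and rotenone (fish MR26 to MR30) and 5 livers labelled 9 weeks and DMSO (MC1 to MC5). Rotenone was present in the tank water at 15 pM for 4 weeks from 23 weeks of age, and the young fish received DMSO from 5 weeks of age. Another group of the same experiment, 5 livers of 27-week fish given DMSO (MC6 to MC10), carries the age without the drug. In the main comparison age and drug differ together and cannot be told apart, and it answers which transcripts still differ from young fish after treatment. DMSO was the solvent of the rotenone, so all 3 groups received it. The number of tanks is not stated in the labels used here, so tank and group cannot be told apart. Each liver is from a separate fish. Strain and sex are not stated in the labels used here.

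Rotenone is an inhibitor of respiratory complex I, the entry point of electrons from NADH. The nuclear genome encodes most subunits of that complex and all proteins of the mitochondrial ribosome, and the mitochondrial genome encodes the rest of the subunits. The liver makes most plasma proteins and lipoproteins, stores and releases glucose, and takes its metabolic orders from insulin, glucagon and growth hormone. In many fish, exocrine pancreas tissue lies within or against the liver.

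The 15 livers held between 26.5 and 39.7 M counted reads each (M, mega). Counts were fitted in edgeR over all 15 livers, a gene was called at an adjusted p under 0.05, and levels are given as CPM, counts per 1e6 of the scaled library size. Fold changes are log2 ratios with their standard error (SE). Hepatocyte transcripts were abundant in every group: the plasma protein transferrin (tfa) had a median of 26261 CPM in rotenone livers, 23364 CPM in 27-week DMSO livers and 35387 CPM in 9-week livers. All groups also carried exocrine pancreas transcripts. The 25 loci of that list summed to 73086, 60022, 54464, 34508 and 14304 CPM in the rotenone livers and to 22294, 5705, 13928, 9849 and 43174 CPM in the 27-week DMSO livers, against 6354, 27571, 10510.4, 9163 and 27782 CPM in the 9-week livers. In whole tissue, fewer cells of a type and less RNA per cell cannot be told apart. Some libraries stood apart. MR26 had the lowest scaling factor, 0.702, and 185686 CPM of cytosolic ribosomal protein transcripts, against 56361 to 71954 CPM in the other rotenone livers. MC1 had 1793 CPM of macrophage markers, against 510.2 to 711 CPM in the other 9-week livers.

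Compared with young livers, rotenone livers of old fish carried more transcript of the mitochondrial ribosome (36 of 62 tested members called higher), of the proteasome (15 of 48) and of part of the cell cycle and replication list (15 of 98, of which 4 are loci of the tubulin tuba8l4). They carried less of the autophagy kinase ulk1b Nfu_g_1_006321, with a log2 fold change of -2.40 ± 0.29 (SE, n = 5 each; adjusted p = 0.000544), of an insulin receptor locus, and of the clock output factors dbpb and tefb. The replication genes mcm7, pold3 and tyms were also higher in 27-week than in 9-week DMSO livers, while the mitochondrial ribosome and proteasome lists had medians of -0.12 and -0.18 there. Of 16750 genes tested, 2361 were called, 1159 higher in rotenone livers and 1202 lower. These are 14.1% of the tested genes, with 6.92% called higher and 7.18% called lower, and the median log2 fold change over all tested genes was -0.03. At least 2-fold differences were carried by 524 of the genes called higher and 701 of those called lower. The same fit gave 4348 calls between rotenone and DMSO livers of 27 weeks (2336 higher, 13.9%, and 2012 lower, 12%; 26% of the tested genes together) and 2072 calls between 27-week and 9-week DMSO livers (785 higher, 4.69%, and 1287 lower, 7.68%; 12.4% together). These 3 comparisons share libraries, so their values are set side by side and not tested against each other. The shares over all tested genes differ between them, and each list count below is to be read beside the share of its own comparison. Leaving out MR27 lowered the count to 1283, and leaving out MR30, MC3 or MC4 lowered it to 1373, 1506 and 1565. Longer transcripts were lower in the rotenone livers: of 5 equal groups by length, the longest, over 5467 nucleotides, had a median log2 fold change of -0.22, and the shortest, up to 1128 nucleotides, a median of 0.07. The count was computed again with a fit that removed the trend with length in each library, which called 2181 genes.

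**Figure D1:**
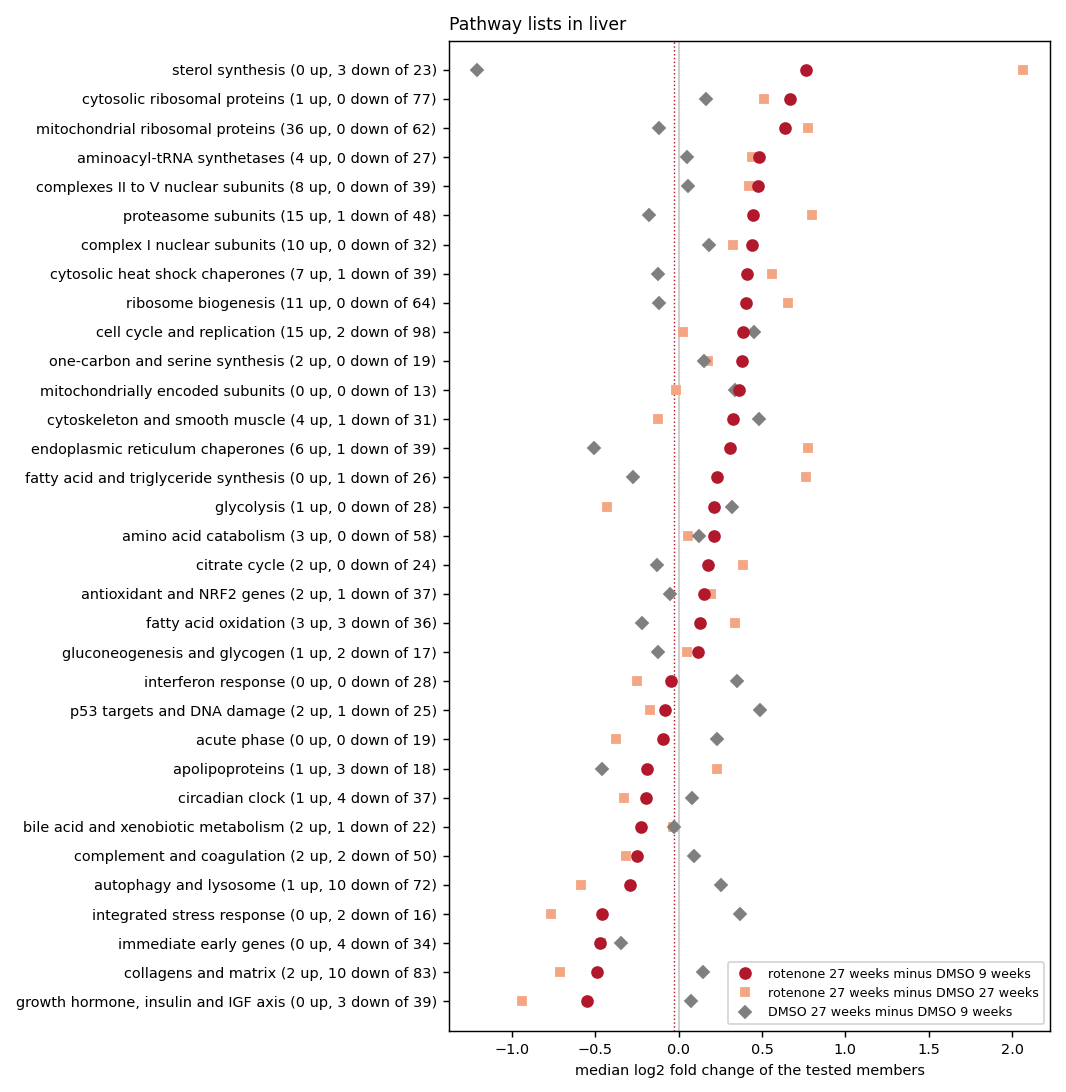
Median log2 fold change of the tested members of 33 pathway lists (horizontal axis) in liver, for rotenone 27 weeks minus DMSO 9 weeks (circles), rotenone 27 weeks minus DMSO 27 weeks (squares) and DMSO 27 weeks minus DMSO 9 weeks (diamonds). Numbers beside each list count its members called higher and lower in the first comparison, and the dotted line marks the median of all tested genes in it, -0.03; mitochondrial ribosomal proteins had 36 of 62 members called higher and 0 called lower.

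The differences with the smallest p did not come from one pathway. The lowest p belonged to CU459186.1 (Nfu_g_1_015771), annotated as an uncharacterized protein, which had 4.49, 3.44, 5.56, 4.98 and 5.34 CPM in the rotenone livers, against 17.3, 22.2, 29.7, 24.8 and 33.1 CPM in the 9-week livers. No liver overlapped between the groups, and the log2 fold change was -2.42 ± 0.19 (SE, n = 5 each; adjusted p = 2.61e-05). Next came sephs1 (Nfu_g_1_007943), selenophosphate synthetase 1, with 18.6, 25.4, 17.2, 25.6 and 20.6 CPM in the rotenone livers, against 5.16, 5.75, 5.17, 4.03 and 5.42 CPM in the 9-week livers. Every rotenone liver lay above every 9-week liver, and sephs1 rose by 2.07 ± 0.17 (SE, n = 5 each; adjusted p = 2.61e-05) on the log2 scale; in 27-week DMSO livers it spanned 5.90 to 8.82 CPM. A locus of med13a (Nfu_g_1_006701), a subunit of the Mediator complex that links transcription factors to RNA polymerase II, fell, with 5.06, 3.56, 4.81, 4.92 and 3.76 CPM in the rotenone livers, against 19.9, 14.1, 15.2, 12.1 and 18.5 CPM in the 9-week livers. Its log2 fold change was -1.85 ± 0.17 (SE, n = 5 each; adjusted p = 0.000116), and the 27-week DMSO livers held 16.0 to 23.2 CPM. ANKRD11 (Nfu_g_1_003953), a chromatin regulator in mammals, had 11.4, 6.29, 8.34, 7.65 and 7.42 CPM in the rotenone livers, against 34.8, 31.9, 40.2, 37.5 and 42.9 CPM in the 9-week livers. For ANKRD11 the log2 fold change was -2.19 ± 0.21 (SE, n = 5 each; adjusted p = 0.000128). The other 6 genes among the 10 smallest p all fell without overlap between the groups. Genes chosen for a small p tend to separate the groups, so this lack of overlap was largely built in. The same holds for list members named below for their small p. Named ones were tbcelb (tubulin folding cofactor E-like) at a log2 fold change of -2.51, EFS (an adaptor of Src-family kinases) at -2.02, DDX17 (an RNA helicase) at -1.39, lima1 Nfu_g_1_021180 (an actin-binding LIM protein) at -1.28 and atrnl1 (attractin-like 1) at -1.06. For tbcelb, the levels were 1.57 to 3.53 CPM in rotenone livers, against 12.8 to 16.1 CPM in 9-week livers, and for atrnl1 they were 11.7 to 13.4 CPM in rotenone livers, against 23.2 to 28.9 CPM in 9-week livers. Among these 10 genes, lima1, DDX17 and sephs1 in 27-week DMSO livers also lay outside the 9-week range, on the same side as the rotenone livers. In 27-week DMSO livers lima1 spanned 27.6 to 35.0 CPM, against 45.5 to 58.2 CPM in 9-week livers. The same 9-week livers served for choosing these genes, and no share over all tested genes is given beside them.

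**Figure D2:**
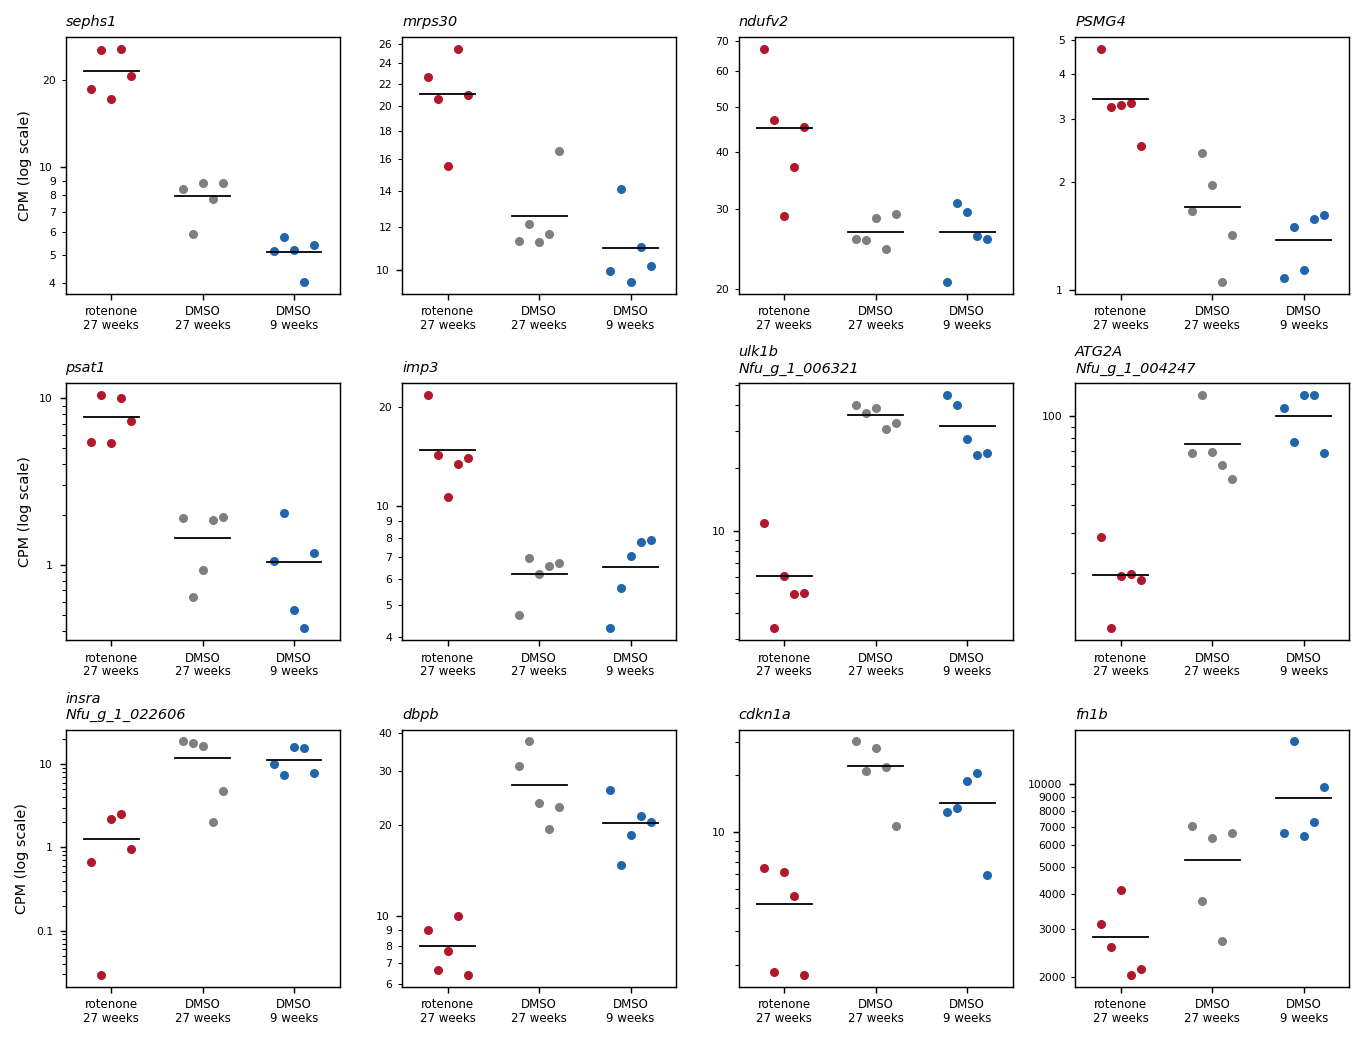
CPM (vertical axis, log scale) of 12 genes in each of the 15 livers, with rotenone livers of 27 weeks on the left, DMSO livers of 27 weeks in the middle and DMSO livers of 9 weeks on the right; points are fish and bars are group means. The rotenone points of sephs1, imp3, psat1, ulk1b, ATG2A and dbpb lie outside the ranges of both DMSO groups.

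More than any other pathway list in share of members, the mitochondrial ribosome, which translates the subunits encoded in mitochondrial DNA, had transcripts called higher in rotenone livers. Among the mitochondrial ribosomal proteins, 36 of 62 tested members rose and 0 fell, with a median log2 fold change of 0.64; the 58.1% of members called higher stand beside 6.92% of all tested genes. Of the 62 tested members, 58 had a positive fold change. Side by side, against the 27-week DMSO livers 44 rose and 0 fell, with a median of 0.77, and between the 27-week and the 9-week DMSO livers 0 rose and 2 fell, with a median of -0.12. Summed over the list, the level was 1816, 1312, 1056, 1322 and 1329 CPM in the rotenone livers, against 693, 952, 988, 1072 and 924 CPM in the 9-week livers. The sums of MR28 and MC4 overlapped, and the 27-week DMSO livers spanned 807 to 979.6 CPM.

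The 4 members with the smallest p all had names that begin with mrps. mrps23 (Nfu_g_1_013951) had 65.9, 45.2, 36.1, 41.2 and 49.3 CPM in the rotenone livers, against 19.5, 26.6, 25.9, 25.8 and 25.6 CPM in the 9-week livers; the groups did not overlap, and it rose by 0.94 ± 0.16 (SE, n = 5 each; adjusted p = 0.0028). mrps5 (Nfu_g_1_002819) had 33.6, 25.7, 19.7, 28.6 and 27.7 CPM in the rotenone livers, against 11.9, 15.3, 15.59, 14.9 and 13.5 CPM in the 9-week livers. For mrps5 the log2 difference was 0.93 ± 0.16 (SE, n = 5 each; adjusted p = 0.00333). mrps30 (Nfu_g_1_007359) reached 22.6, 20.7, 15.5, 25.5 and 21.0 CPM in the rotenone livers, against 9.99, 14.1, 9.53, 11.04 and 10.2 CPM in the 9-week livers, and mrps10 (Nfu_g_1_018696) reached 15.1, 9.58, 8.45, 11.9 and 11.4 CPM in the rotenone livers, against 4.56, 6.42, 4.85, 6.07 and 6.39 CPM in the 9-week livers. In neither gene did a rotenone liver fall within the range of the 9-week livers, and the log2 differences were 0.94 ± 0.17 (SE, n = 5 each; adjusted p = 0.00374) and 0.99 ± 0.18 (SE, n = 5 each; adjusted p = 0.00416). The 27-week DMSO livers held 23.9 to 29.3 CPM of mrps23, 13.5 to 20.3 CPM of mrps5, 11.3 to 16.5 CPM of mrps30 and 5.64 to 7.94 CPM of mrps10, and none of these 4 was called between the DMSO groups. The 36 genes called higher ranged from mrpl3 at 0.48 to MRPL53 (1 of 2) at 1.03 on the log2 scale. With single libraries left out, between 25 and 39 members were called higher and 0 lower. With the length trend removed, 31 were called higher, at a median of 0.58. Summed exocrine pancreas markers were higher in 4 of 5 rotenone livers than in any 9-week liver, and their part in this count was not tested.

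Subunits of the respiratory chain had fewer calls, all of them higher. Of the nuclear subunits of complex I, the target of rotenone, 10 of 32 tested members rose and 0 fell, with a median log2 fold change of 0.44 (0.23 without MR26). The share called higher was 31.2%, beside 6.92% of all tested genes. Side by side, against the 27-week DMSO livers 4 rose and 1 fell, with a median of 0.32, where 13.9% of all tested genes rose and 12% fell. Between the 27-week and the 9-week DMSO livers 0 rose and 0 fell, with a median of 0.18, where 4.69% of all tested genes rose and 7.68% fell. ndufv2 (Nfu_g_1_012988), a subunit of the NADH-oxidising end of the complex, had 67.3, 46.9, 28.8, 37.0 and 45.2 CPM in the rotenone livers, against 20.7, 30.8, 29.5, 26.2 and 25.8 CPM in the 9-week livers. Its groups overlapped at MR28, and it rose by 0.76 ± 0.19 (SE, n = 5 each; adjusted p = 0.0195). NDUFC2 (Nfu_g_1_000530), of the membrane arm, had 133, 63.2, 53.9, 55.9 and 66.2 CPM in the rotenone livers, against 31.6, 40.4, 46.0, 42.2 and 41.9 CPM in the 9-week livers. MR26 was the highest, yet all 5 rotenone livers lay above the 9-week range, with a log2 difference of 0.88 ± 0.24 (SE, n = 5 each; adjusted p = 0.0266, call lost without MC1 and MC4). ndufs8b (Nfu_g_1_004345), an iron-sulfur subunit, rose by 0.57 ± 0.16 (SE, n = 5 each; adjusted p = 0.0296, call lost without MR27, MC1, MC2 and MC5), and ndufb4 (Nfu_g_1_011244), of the membrane arm, by 0.74 ± 0.21 (SE, n = 5 each; adjusted p = 0.0302, call lost without MR27, MR30, MC1, MC3, MC4 and MC5). Their levels were 21.6 to 41.0 CPM in rotenone livers, against 17.3 to 21.2 CPM in 9-week livers for ndufs8b, and 17.6 to 41.2 CPM in rotenone livers, against 13.4 to 16.7 CPM in 9-week livers for ndufb4. Calls named as lost are those no longer made when the fit leaves out that 1 fish. The number of complex I subunits called higher depended on single fish: it was 1 without MC1, 2 without MC5, 3 without MC2, MC3 or MR27, 6 without MC4, MR26 or MR30, 7 without MR29 and 13 without MR28.

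For complexes II to V, 8 of 39 tested members rose and 0 fell, with a median log2 fold change of 0.47 (0.28 without MR26). Called higher were 20.5% of the members, beside 6.92% of all tested genes. Side by side, against the 27-week DMSO livers 7 rose and 1 fell, with a median of 0.42, where 13.9% of all tested genes rose and 12% fell. Between the 27-week and the 9-week DMSO livers 2 rose and 1 fell, with a median of 0.06, where 4.69% of all tested genes rose and 7.68% fell. cox6b2 (Nfu_g_1_018035), a complex IV subunit with a testis-enriched form in mammals, had 10.3, 4.06, 4.42, 6.71 and 4.48 CPM in the rotenone livers, against 2.84, 1.000, 1.75, 1.32 and 1.05 CPM in the 9-week livers. It was already higher in the 27-week DMSO livers, at 4.20 to 7.51 CPM; the log2 difference from 9-week livers was 1.91 ± 0.34 (SE, n = 5 each; adjusted p = 0.00376) with rotenone and 1.84 ± 0.34 with DMSO alone (adjusted p = 0.00887). A core subunit of complex III, uqcrc2a (Nfu_g_1_019638), had 22.4 to 38.8 CPM in rotenone livers and 23.4 to 35.6 CPM in 27-week DMSO livers, against 17.3 to 20.2 CPM in 9-week livers. Against the 9-week livers its log2 differences were 0.62 ± 0.16 (SE, n = 5 each; adjusted p = 0.0187) with rotenone and 0.63 ± 0.16 with DMSO (adjusted p = 0.0216). The Rieske subunit of complex III, uqcrfs1 Nfu_g_1_019978, and the alpha subunit of ATP synthase, atp5a1 Nfu_g_1_009250, rose by 0.61 and 0.74. The call for uqcrfs1 was lost without MR26, MR27, MR30, MC1, MC2 and MC3, and that for atp5a1 without MR26, MR27, MR29, MR30, MC1, MC2 and MC5. Leaving out MR26, MR27, MR30, MC1 or MC2 left 2 called members, and leaving out MR28 gave 13; without MC3, MC4, MC5 or MR29 there were 3 to 5. None of the 13 mitochondrially encoded subunits was called in any of the 3 comparisons by edgeR; against 9-week livers 2 had p under 0.05 before adjustment, and DESeq2 called 1. Their median log2 fold change was 0.36 (0.09 without MR26). Summed levels were 56663, 33936, 29679, 30765 and 33188 CPM in rotenone livers, against 32858, 27454, 33391, 34308 and 34637 CPM in 9-week livers. MR26 alone lay above the 9-week livers.

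**Figure D3:**
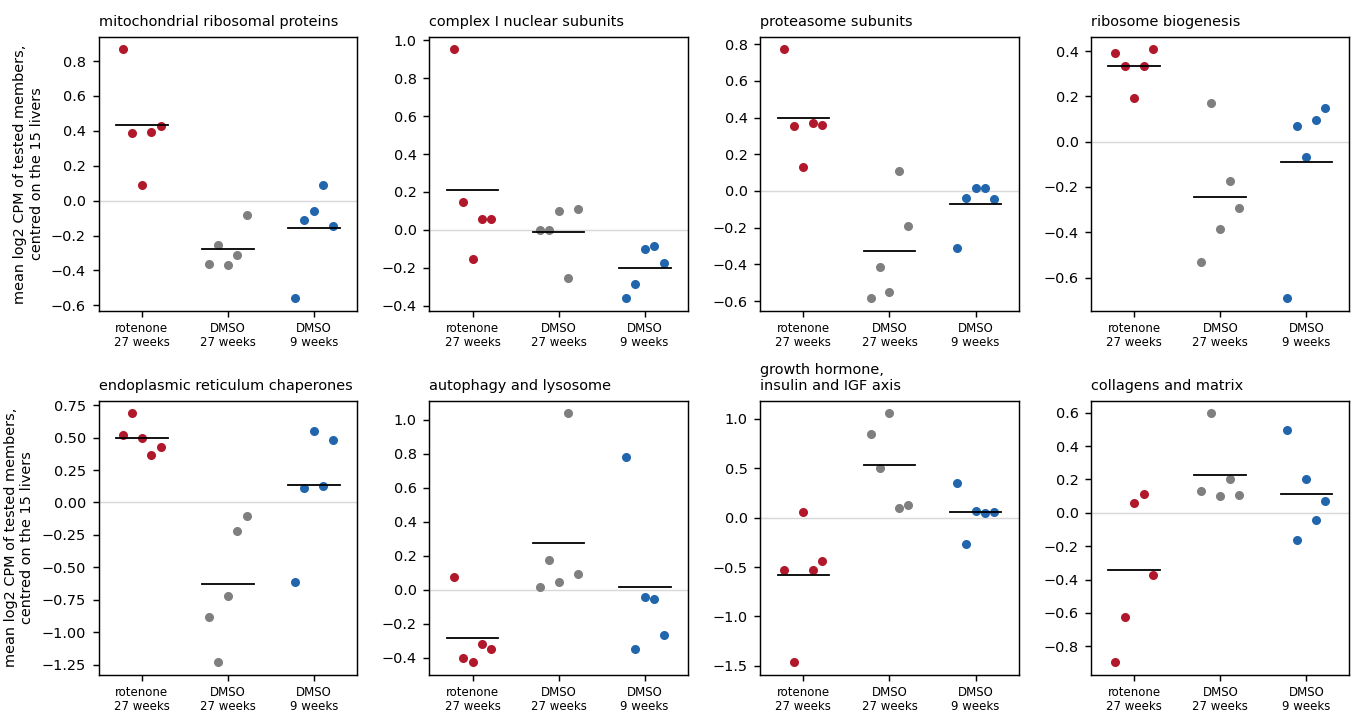
Mean log2 CPM of the tested members of 8 gene lists in each liver (vertical axis), centred on the mean of the 15 livers, with rotenone livers of 27 weeks on the left, DMSO livers of 27 weeks in the middle and DMSO livers of 9 weeks on the right; points are fish and bars are group means. MR26 is the highest point for complex I, proteasome and mitochondrial ribosomal proteins, and MC1 is the lowest 9-week point for these lists and for ribosome biogenesis.

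Of genes of mitochondrial metabolism, few were called. Of the citrate cycle, 2 of 24 tested members rose and 0 fell, with a median log2 fold change of 0.18. The shares called higher and lower were 8.33% and 0%, beside 6.92% and 7.18% of all tested genes, and with the length trend removed 0 members were called higher. By gene, idh3a (isocitrate dehydrogenase 3 alpha) rose by 0.68 ± 0.21 (SE, n = 5 each; adjusted p = 0.0447, call lost without MR26, MR27, MR29, MR30, MC1, MC2, MC3 and MC5) and suclg1 (succinate-CoA ligase) by 0.63 ± 0.20 (SE, n = 5 each; adjusted p = 0.0459, call lost without MR26, MR27, MR29, MR30, MC1, MC2, MC3 and MC5). Of fatty acid oxidation, 3 of 36 members were called higher and 3 lower, which is 8.33% each, near the background of all tested genes. The count called lower was 1 without MR27, MR29 or MC5. The hydratase echs1 (Nfu_g_1_011627), which acts in each round of beta-oxidation, had 23.2, 15.58, 10.9, 18.3 and 18.7 CPM in the rotenone livers, against 4.66, 7.37, 5.57, 5.99 and 8.05 CPM in the 9-week livers. echs1 rose by 1.46 ± 0.21 (SE, n = 5 each; adjusted p = 0.00162). acad9 (Nfu_g_1_016475), an acyl-CoA dehydrogenase that in mammals also serves complex I assembly, had 47.1, 48.0, 41.9, 53.5 and 49.0 CPM in the rotenone livers, against 22.7, 36.4, 34.0, 33.0 and 26.4 CPM in the 9-week livers. acad9 rose by 0.65 ± 0.16 (SE, n = 5 each; adjusted p = 0.0162). Regulators of the pathway were among those lower. pparab Nfu_g_1_003546, a nuclear receptor that activates fatty acid oxidation genes, had 3.01, 2.82, 4.85, 4.20 and 3.41 CPM in the rotenone livers, against 7.46, 26.0, 11.8, 13.2 and 15.2 CPM in the 9-week livers. For pparab the log2 fold change was -2.01 ± 0.39 (SE, n = 5 each; adjusted p = 0.00589). ppargc1b Nfu_g_1_004715, a coactivator of mitochondrial genes, had 1.07 to 1.68 CPM in rotenone livers, against 1.75 to 5.33 CPM in 9-week livers, and fell, with a log2 fold change of -1.43 (adjusted p = 0.0238), a call lost without MR27, MR29, MR30, MC1 and MC5. The mitochondrial chaperonin pair rose: hspd1 (Nfu_g_1_006007) had 308, 345, 266, 370.4 and 347 CPM in the rotenone livers, against 133, 174, 211, 234 and 157 CPM in the 9-week livers, and hspe1 (Nfu_g_1_006058) had 165, 91.4, 78.2, 75.6 and 78.9 CPM in the rotenone livers, against 46.7, 40.8, 60.5, 57.7 and 54.9 CPM in the 9-week livers. No rotenone liver overlapped the 9-week livers in either gene, and the log2 differences were 0.85 ± 0.17 (SE, n = 5 each; adjusted p = 0.00647) and 0.91 ± 0.22 (SE, n = 5 each; adjusted p = 0.0157). In 27-week DMSO livers hspd1 spanned 176 to 221 CPM.

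Some genes of protein degradation and folding were called higher. The proteasome degrades ubiquitin-tagged proteins. Of its subunits and assembly factors, 15 of 48 tested members rose and 1 fell, with a median log2 fold change of 0.45. The share called higher was 31.2%, beside 6.92% of all tested genes. Side by side, against the 27-week DMSO livers 34 rose and 0 fell, with a median of 0.80, and between the 27-week and the 9-week DMSO livers 0 rose and 10 fell, with a median of -0.18. PSMG4 (Nfu_g_1_002274), an assembly chaperone, had 4.72, 3.23, 3.28, 3.33 and 2.53 CPM in the rotenone livers, against 1.08, 1.4999, 1.14, 1.58 and 1.62 CPM in the 9-week livers. PSMG4 rose by 1.301 ± 0.25 (SE, n = 5 each; adjusted p = 0.0058). pomp (Nfu_g_1_013419), the maturation factor of the 20S core, had 76.0, 40.0, 31.7, 41.6 and 43.7 CPM in the rotenone livers, against 30.1, 24.2, 26.3, 27.8 and 27.3 CPM in the 9-week livers. pomp rose by 0.78 ± 0.19 (SE, n = 5 each; adjusted p = 0.0165). psma1 (Nfu_g_1_010860), a core subunit, had 27.7 to 56.8 CPM in rotenone livers, against 21.1 to 23.9 CPM in 9-week livers, and psmc5 (Nfu_g_1_023415), an ATPase of the regulatory cap, had 36.4 to 73.9 CPM in rotenone livers, against 23.6 to 37.3 CPM in 9-week livers; their log2 differences were 0.84 ± 0.19 (SE, n = 5 each; adjusted p = 0.013) and 0.77 ± 0.19 (SE, n = 5 each; adjusted p = 0.0167). PSMG4, pomp and psma1 did not overlap between the groups, while psmc5 in MR28 lay within the 9-week range. The only member called lower was psme4b Nfu_g_1_014421, an activator subunit, at -0.99. The count of members called higher fell to 7 without MR27 or MC5, to 8 without MR26, MC3 or MC4, and to 9 without MC1, MR29 or MR30; it was 10 without MC2 and 17 without MR28.

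Among the chaperones of the endoplasmic reticulum, 6 of 39 tested members rose and 1 fell, with a median log2 fold change of 0.31 (0.21 without MC1). The shares called higher and lower were 15.4% and 2.56%, beside 6.92% and 7.18% of all tested genes. For this list, against the 27-week DMSO livers 23 rose and 0 fell, with a median of 0.77, and between the 27-week and the 9-week DMSO livers 1 rose and 12 fell, with a median of -0.51. sdf2l1 (Nfu_g_1_018589), a co-factor of the luminal Hsp70, had 316, 165, 129, 152 and 181 CPM in the rotenone livers, against 38.6, 47.5, 75.2, 64.8 and 73.0 CPM in the 9-week livers. All rotenone livers were above all 9-week livers; the log2 difference was 1.66 ± 0.26 (SE, n = 5 each; adjusted p = 0.00201), and the 27-week DMSO livers, at 80.6 to 129 CPM, also lay above the 9-week range. Exocrine pancreas is rich in this machinery, and its summed markers were higher in 4 of 5 rotenone livers than in any 9-week liver; their part in the endoplasmic reticulum and proteasome counts was not tested. Of the cytosolic and mitochondrial heat shock chaperones, 7 of 39 tested members rose and 1 fell, with a median log2 fold change of 0.41. These were 17.9% and 2.56% of the members, beside 6.92% and 7.18% of all tested genes. Apart from hspd1 and hspe1, stip1 (Nfu_g_1_005195), which bridges Hsp70 and Hsp90, rose by 0.63 ± 0.15 (SE, n = 5 each; adjusted p = 0.0148), and cct5 (Nfu_g_1_011247), of the chaperonin that folds actin and tubulin, by 0.75 ± 0.19 (SE, n = 5 each; adjusted p = 0.0208, call lost without MR30). stip1 had 44.9 to 64.0 CPM in rotenone livers, against 26.1 to 41.5 CPM in 9-week livers, and cct5 had 28.1 to 45.3 CPM in rotenone livers, against 15.9 to 27.4 CPM in 9-week livers, with no overlap. The endoplasmic reticulum count was 2 without MC4 or MR27, 4 without MC5, 6 without MR28 and 3 in the other 6 such fits, and the chaperone count was 3 without MR30 and 4 without MR27. The integrated stress response, the branch that reduces translation under stress, had 0 of 16 members higher and 2 lower (trib3 at -1.36 and eif2ak4 at -0.91), with a median of -0.46 (-0.27 without MC1 and -0.25 without MC5). The 2 are 12.5% of the tested members, beside 7.18% of all tested genes.

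Some of the genes that build cytosolic ribosomes were called higher. Among the ribosome biogenesis genes, 11 of 64 tested members rose and 0 fell, with a median log2 fold change of 0.40 (0.26 without MC1). The share called higher was 17.2%, beside 6.92% of all tested genes. As for the other comparisons, against the 27-week DMSO livers 33 rose and 0 fell, with a median of 0.66, and between the 27-week and the 9-week DMSO livers 0 rose and 3 fell, with a median of -0.12. imp3 (Nfu_g_1_007913), of the U3 snoRNP that processes the precursor of 18S rRNA, had 21.8, 14.3, 10.7, 13.5 and 14.02 CPM in the rotenone livers, against 4.25, 5.62, 7.06, 7.76 and 7.88 CPM in the 9-week livers. It rose by 1.19 ± 0.22 (SE, n = 5 each; adjusted p = 0.00421), and the 27-week DMSO livers spanned 4.66 to 6.95 CPM. polr1c (Nfu_g_1_007313), a subunit shared by RNA polymerases I and III, had 57.3, 27.0, 24.7, 28.7 and 31.5 CPM in the rotenone livers, against 12.8, 15.7, 13.6, 18.2 and 15.5 CPM in the 9-week livers. polr1c rose by 1.16 ± 0.21 (SE, n = 5 each; adjusted p = 0.00453). wdr36 (Nfu_g_1_010724), of the small-subunit processome, had 67.8, 49.8, 35.5, 48.2 and 52.6 CPM in the rotenone livers, against 12.2, 24.1, 22.0, 25.2 and 21.6 CPM in the 9-week livers. For wdr36 the log2 difference was 1.27 ± 0.24 (SE, n = 5 each; adjusted p = 0.00544). In none of these 3 genes did the groups overlap. The cytosolic ribosomal proteins themselves had a median of 0.67, with 76 of 77 positive, but 1 called: rpl5b Nfu_g_1_014110, a large-subunit protein, at 1.03 ± 0.19 (SE, n = 5 each; adjusted p = 0.00491). Without MR26 that median was 0.21. Of the aminoacyl-tRNA synthetases, 4 of 27 rose and 0 fell, with a median of 0.48. That is 14.8% called higher, beside 6.92% of all tested genes. aars (Nfu_g_1_008255, alanine) had 147, 122, 95.2, 117 and 112 CPM in the rotenone livers, against 53.6, 75.9, 71.2, 66.3 and 63.8 CPM in the 9-week livers. aars rose by 0.84 ± 0.17 (SE, n = 5 each; adjusted p = 0.00647); it was also higher in 27-week than in 9-week DMSO livers, at 84.1 to 139 CPM and a log2 difference of 0.63 ± 0.17 (adjusted p = 0.0272). vars (valine) rose by 0.97 ± 0.31 (SE, n = 5 each; adjusted p = 0.0481, call lost without MR26, MR27, MR28, MR29, MR30, MC1, MC2, MC3, MC4 and MC5); MC1 had 20.8 CPM of it, against 54.9 to 61.5 CPM in the other 9-week livers. The synthetase count was 1 without MC1, MC5, MR29 or MR30, 2 without MC2, MC3 or MC4, 3 without MR26 or MR27, and 5 without MR28.

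In autophagy, the route by which cells deliver their own components to lysosomes, the called genes were mostly lower. Of its genes and those of the lysosome, 1 of 72 tested rose and 10 fell, with a median log2 fold change of -0.29; 13.9% were called lower, beside 7.18% of all tested genes. Side by side, against the 27-week DMSO livers 1 rose and 14 fell, with a median of -0.59, and between the 27-week and the 9-week DMSO livers 1 rose and 1 fell, with a median of 0.25. The 3 members with the smallest p act early in the formation of autophagosomes. ulk1b Nfu_g_1_006321, the kinase that starts the process, had 10.9, 3.38, 6.06, 4.96 and 4.99 CPM in the rotenone livers, against 44.9, 40.0, 27.5, 23.1 and 23.7 CPM in the 9-week livers. The groups were far apart, the log2 fold change was -2.40 ± 0.29 (SE, n = 5 each; adjusted p = 0.000544), and the 27-week DMSO livers held 31.0 to 40.0 CPM. ATG2A Nfu_g_1_004247, which feeds lipid to the growing membrane, had 28.8, 11.3, 19.3, 19.8 and 18.5 CPM in the rotenone livers, against 109, 76.9, 124, 124 and 68.6 CPM in the 9-week livers. For ATG2A the log2 difference was -2.37 ± 0.29 (SE, n = 5 each; adjusted p = 0.000559). atg9b (Nfu_g_1_020074), the membrane protein of the seed vesicles, had 17.4, 8.23, 12.9, 8.49 and 12.9 CPM in the rotenone livers, against 39.4, 31.4, 35.6, 41.3 and 30.7 CPM in the 9-week livers. For atg9b the log2 fold change was -1.58 ± 0.21 (SE, n = 5 each; adjusted p = 0.00101). Other members called lower included map1lc3b at -1.78, the cholesterol exporter npc1 at -0.95 and lamp2 at -0.49, and the member called higher was neu1 Nfu_g_1_009989 at 0.62. Between 8 and 14 members were called lower with single libraries left out; without MC1, in which macrophage markers were high, the count was 10 and the median 0.08, and without MR26 they were 14 and -0.42.

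In the growth hormone, insulin and IGF axis, 0 of 39 tested members rose and 3 fell, with a median log2 fold change of -0.55 (-0.32 without MC1). The shares called higher and lower were 0% and 7.69%, beside 6.92% and 7.18% of all tested genes, so the list as a whole was near the background in calls. For this list, against the 27-week DMSO livers 1 rose and 12 fell, with a median of -0.94, and between the 27-week and the 9-week DMSO livers 2 rose and 1 fell, with a median of 0.08. A locus of the insulin receptor, insra Nfu_g_1_022606, had 0.668, 0.0294, 2.18, 2.55 and 0.948 CPM in the rotenone livers, against 10.1, 7.50, 15.9, 15.5 and 7.92 CPM in the 9-week livers. Every rotenone liver was below every 9-week liver, and the log2 fold change was -3.14 ± 0.75 (SE, n = 5 each; adjusted p = 0.0155); in 27-week DMSO livers it spanned 2.02 to 18.8 CPM. ghra Nfu_g_1_009044, a growth hormone receptor locus, had 4.63, 6.12, 47.8, 21.9 and 8.02 CPM in the rotenone livers, against 116, 224, 46.0, 73.4 and 190.1 CPM in the 9-week livers. MR28 overlapped MC3, and the log2 fold change was -2.88 ± 0.79 (SE, n = 5 each; adjusted p = 0.0282, call lost without MR26, MR27, MR29, MR30, MC2 and MC5). igfbp1a Nfu_g_1_015868, a binding protein that holds IGF in plasma, had 11.5 to 19.4 CPM in rotenone livers, against 21.5 to 38.0 CPM in 9-week livers. For igfbp1a the log2 fold change was -0.91 ± 0.26 (SE, n = 5 each; adjusted p = 0.0307, call lost without MR26, MR27, MR28, MR29, MC2 and MC4). The count of members called lower was 1 without MR27 or MR29, 3 without MC3, 4 without MC1, 5 without MR28 and 2 in the other 5 fits.

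The clock list, whose genes oscillate over the day, had 1 member of 37 called higher and 4 lower. These are 2.7% and 10.8% of its tested members, beside 6.92% and 7.18% of all tested genes. All 4 that fell are PAR bZIP transcription factors, output regulators of the clock: dbpb (Nfu_g_1_001056), tefb (Nfu_g_1_019542), tefa (Nfu_g_1_023410) and hlfa. dbpb had 9.02, 6.64, 7.70, 10.00 and 6.41 CPM in the rotenone livers, against 26.1, 14.8, 18.4, 21.3 and 20.5 CPM in the 9-week livers, and tefb had 3.53, 4.38, 11.3, 9.06 and 5.56 CPM in the rotenone livers, against 16.7, 21.5, 17.6, 19.5 and 17.0 CPM in the 9-week livers. Neither gene overlapped between the groups, and the log2 fold changes were -1.35 ± 0.21 (SE, n = 5 each; adjusted p = 0.00192) and -1.45 ± 0.28 (SE, n = 5 each; adjusted p = 0.00578). The log2 fold changes of tefa and hlfa were -0.55 and -0.88; the call for tefa was lost without MR27, MR29, MR30, MC2 and MC4. per2 Nfu_g_1_020053, of the negative limb of the clock, had 1.77, 3.06, 4.78, 3.04 and 1.74 CPM in the rotenone livers, against 0.473, 0.708, 1.25, 1.39 and 0.768 CPM in the 9-week livers. per2 rose by 1.64 ± 0.41 (SE, n = 5 each; adjusted p = 0.0182). The hour at which the fish were killed is not stated in the labels used here, and its part in these values was not tested. In 27-week DMSO livers the levels were 19.4 to 37.6 CPM for dbpb and 19.4 to 37.2 CPM for tefb. Without MC2, MC4, MR27 or MR30 the count called lower was 2, without MC3 or MR29 it was 3, and without MC1 or MR26 it was 6.

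cdkn1a (Nfu_g_1_020871), the cell cycle inhibitor p21 and a target of p53, had 6.49, 1.82, 6.20, 4.63 and 1.77 CPM in the rotenone livers, against 12.9, 13.4, 18.6, 20.6 and 5.98 CPM in the 9-week livers. MR26 and MR28 lay above MC5, the lowest 9-week liver, and the log2 fold change was -1.78 ± 0.42 (SE, n = 5 each; adjusted p = 0.0152). The 27-week DMSO livers, at 10.8 to 30.1 CPM, did not overlap the rotenone livers. cdkn1a was the 1 member called lower of 25 tested p53 targets and DNA damage genes, and 2 loci of xpc were called higher. These are 4% lower and 8% higher, beside 7.18% and 6.92% of all tested genes. Among the genes of cell cycle and replication, 15 of 98 tested members rose and 2 fell, with a median log2 fold change of 0.39 (0.14 without MR29). The share called higher was 15.3%, beside 6.92% of all tested genes. For this list, against the 27-week DMSO livers 11 rose and 8 fell, with a median of 0.02, where 13.9% of all tested genes rose and 12% fell. Between the 27-week and the 9-week DMSO livers 5 rose and 1 fell, with a median of 0.45, where 4.69% of all tested genes rose and 7.68% fell. The smallest p was that of a tubulin, tuba8l4 Nfu_g_1_015292, which rose by 0.90 ± 0.16 (SE, n = 5 each; adjusted p = 0.00384). Of the replication genes, mcm7 (Nfu_g_1_004682), of the replicative helicase, had 8.399, 6.59, 8.99, 17.9 and 6.82 CPM in the rotenone livers, against 5.27, 2.54, 3.75, 2.68 and 3.60 CPM in the 9-week livers. mcm7 rose by 1.45 ± 0.29 (SE, n = 5 each; adjusted p = 0.00647). pold3 (Nfu_g_1_013269), of DNA polymerase delta, had 5.06, 3.97, 5.13, 5.78 and 4.83 CPM in the rotenone livers, against 2.13, 2.25, 2.39, 2.37 and 3.32 CPM in the 9-week livers. pold3 rose by 0.99 ± 0.19 (SE, n = 5 each; adjusted p = 0.00556). tyms (Nfu_g_1_006956), which makes the thymidine nucleotide, had 5.15, 8.41, 5.78, 7.04 and 4.64 CPM in the rotenone livers, against 3.41, 3.00, 2.71, 1.92 and 3.15 CPM in the 9-week livers. For tyms the log2 difference was 1.13 ± 0.23 (SE, n = 5 each; adjusted p = 0.00753). None of these 3 genes overlapped between the groups. All 3 were also higher in 27-week than in 9-week DMSO livers, with log2 differences of 1.29 ± 0.29 for mcm7, 0.66 ± 0.19 for pold3 and 0.93 ± 0.23 for tyms (adjusted p = 0.0153, 0.0375 and 0.0223). Their levels in 27-week DMSO livers were 6.18 to 10.3, 2.90 to 4.70 and 3.20 to 6.40 CPM. The tubulin tuba8l4 had 4 loci among the 15 called higher, and CENPE Nfu_g_1_000737 and uhrf1 Nfu_g_1_006708 were the 2 called lower. The list had 8 members called higher without MR27, 9 without MC3, and 10 to 14 without each of the other 8 compared fish.

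Few genes of amino acid and serine metabolism were called. psat1 (Nfu_g_1_007385), of serine synthesis, had 5.44, 10.4, 5.38, 10.1 and 7.26 CPM in the rotenone livers, against 1.05, 2.04, 0.535, 0.415 and 1.17 CPM in the 9-week livers. No liver overlapped, and psat1 rose by 2.89 ± 0.44 (SE, n = 5 each; adjusted p = 0.00185); the 27-week DMSO livers spanned 0.636 to 1.94 CPM. Of amino acid catabolism, 3 of 58 tested members rose and 0 fell, with a median log2 fold change of 0.21 (0.04 without MR26, 0.13 without MR30 and 0.10 without MC1). The shares called higher and lower were 5.17% and 0%, beside 6.92% and 7.18% of all tested genes. pcca (Nfu_g_1_019504), of propionyl-CoA carboxylase, had 49.7, 45.9, 32.2, 44.6 and 45.1 CPM in the rotenone livers, against 19.4, 17.2, 20.5, 26.3 and 14.1 CPM in the 9-week livers. pcca rose by 1.16 ± 0.20 (SE, n = 5 each; adjusted p = 0.00328). mccc2 (Nfu_g_1_007411), of leucine breakdown, rose by 0.63 ± 0.13 (SE, n = 5 each; adjusted p = 0.00734), with 22.1 to 27.9 CPM in rotenone livers, against 14.5 to 19.04 CPM in 9-week livers. Both were also higher in 27-week than in 9-week DMSO livers, by 0.77 ± 0.20 and 0.41 ± 0.13 on the log2 scale (adjusted p = 0.0251 and 0.0491). bckdha, of the branched-chain keto acid dehydrogenase, rose by 0.68 ± 0.21 (SE, n = 5 each; adjusted p = 0.0421, call lost without MR26, MR27, MR29, MR30, MC1, MC3, MC4 and MC5). Of the antioxidant genes, 2 of 37 rose and 1 fell (5.41% and 2.7%, beside 6.92% and 7.18% of all tested genes): gss (glutathione synthetase) rose by 0.88 ± 0.19 (SE, n = 5 each; adjusted p = 0.0106) and sod1 Nfu_g_1_022128 (superoxide dismutase) by 1.04 ± 0.27 (SE, n = 5 each; adjusted p = 0.023, call lost without MC1 and MC5), while keap1b, which holds NRF2 back, had a log2 fold change of -0.51. gss did not overlap between the groups, at 16.2 to 23.2 CPM in rotenone livers, against 7.58 to 13.6 CPM in 9-week livers.

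Few lipid synthesis genes were called. Of the sterol synthesis list, 0 of 23 tested members rose and 3 fell, with a median log2 fold change of 0.76, opposite in sign to the calls. Members called lower were 13% of those tested, beside 7.18% of all tested genes. For this list, against the 27-week DMSO livers 16 rose and 2 fell, with a median of 2.07, and between the 27-week and the 9-week DMSO livers 0 rose and 6 fell, with a median of -1.21. The 3 members that fell regulate or take up sterol and make none: scap (the escort of SREBP), insig1 (its retention factor) and ldlr (the LDL receptor). ldlr (Nfu_g_1_019669) had 93.2, 87.4, 208, 134 and 143 CPM in the rotenone livers, against 264, 278, 257, 251 and 301 CPM in the 9-week livers. For ldlr the log2 fold change was -1.02 ± 0.28 (SE, n = 5 each; adjusted p = 0.0294, call lost without MR26, MR27, MR29, MR30, MC3 and MC5). insig1 (Nfu_g_1_006922) had 40.4, 45.4, 63.4, 57.2 and 32.4 CPM in the rotenone livers, against 96.1, 113, 146, 81.9 and 223 CPM in the 9-week livers. For insig1 the log2 fold change was -1.47 ± 0.43 (SE, n = 5 each; adjusted p = 0.0351, call lost without MR26, MR27, MR29, MR30, MC3 and MC5). scap (Nfu_g_1_011078) had 16.0 to 26.6 CPM in rotenone livers, against 35.2 to 61.1 CPM in 9-week livers. For scap the log2 fold change was -1.21 ± 0.31 (SE, n = 5 each; adjusted p = 0.022, call lost without MR27 and MR30). Each of the 3 separated the groups, and none of the 3 was called without MR27 or MR30. acacb (Nfu_g_1_009092), the acetyl-CoA carboxylase that restrains fatty acid oxidation in mammals, was the 1 of 26 fatty acid synthesis genes called, with 6.06, 5.88, 11.8, 11.7 and 5.12 CPM in the rotenone livers, against 37.5, 26.3, 25.4, 24.5 and 19.5 CPM in the 9-week livers. Its log2 fold change was -1.71 ± 0.28 (SE, n = 5 each; adjusted p = 0.00257), and the 27-week DMSO livers held 20.2 to 46.7 CPM.

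Several lipid and glucose genes that were low in rotenone livers were low in 27-week DMSO livers as well. apobl (Nfu_g_1_019093), a locus of apolipoprotein B, the scaffold of exported lipoproteins, had 4150.0, 5345, 5525, 4946 and 4091 CPM in the rotenone livers, against 10885, 18692, 11292, 9490.1 and 19763 CPM in the 9-week livers. The 27-week DMSO livers spanned 2755 to 8346 CPM, and the log2 fold changes against the 9-week livers were -1.54 ± 0.32 (SE, n = 5 each; adjusted p = 0.00785) with rotenone and -1.19 ± 0.32 with DMSO (adjusted p = 0.0275). APOB (1 of 3) Nfu_g_1_018881 had 27.6, 79.3, 46.6, 103 and 75.8 CPM in the rotenone livers, against 342, 650.5, 222, 708 and 234 CPM in the 9-week livers; the 27-week DMSO range was 2.19 to 68.3 CPM, and the log2 fold changes were -2.70 ± 0.68 (SE, n = 5 each; adjusted p = 0.02) and -3.73 ± 0.72 (adjusted p = 0.00981). CT027607.3 (Nfu_g_1_004140), described in the table as fatty acid binding protein 11a, had 39.1, 23.7, 26.9, 24.2 and 30.6 CPM in the rotenone livers, against 150.5, 273, 204, 80.9 and 612 CPM in the 9-week livers. Its 27-week DMSO range was 24.7 to 52.4 CPM, with log2 fold changes of -3.19 ± 0.45 (SE, n = 5 each; adjusted p = 0.00134) and -2.78 ± 0.44 (adjusted p = 0.00702). pcyt1bb (Nfu_g_1_005451), of phosphatidylcholine synthesis, showed one of the largest falls, with 0.573, 0.676, 0.499, 1.39 and 1.17 CPM in the rotenone livers, against 48.5, 19.3, 54.9, 102 and 36.0 CPM in the 9-week livers. The log2 fold change was -5.89 ± 0.94 (SE, n = 5 each; adjusted p = 0.00228) with rotenone and -3.64 ± 0.84 with DMSO (adjusted p = 0.0168), where 4 livers held 0.671 to 1.76 CPM and MC9 16.4 CPM. lipea (Nfu_g_1_012278), a hormone-sensitive lipase, had 8.31 to 10.6 CPM in rotenone livers and 7.21 to 14.5 CPM in 27-week DMSO livers, against 14.3 to 26.0 CPM in 9-week livers. Its log2 fold change was -1.02 ± 0.20 (SE, n = 5 each; adjusted p = 0.00661). lipea is also an adipocyte marker, and the adipocyte list summed to 738 to 1802 CPM in rotenone and 651 to 2009 CPM in 27-week DMSO livers. In 9-week livers the sum was 2202 to 7337 CPM. The part of fat tissue in these values was not tested. g6pca.2 Nfu_g_1_023159, a glucose-6-phosphatase locus of glucose release, had 480.4 to 1501 CPM in rotenone livers, against 1288 to 4228 CPM in 9-week livers, with overlap at MR26, and a log2 fold change of -1.65 ± 0.39 (SE, n = 5 each; adjusted p = 0.0152). In 27-week DMSO livers this locus held 630.1 to 1534 CPM, a log2 difference of -1.55 ± 0.39 from 9-week livers (adjusted p = 0.023). The other called g6pca.2 locus, Nfu_g_1_017663, went the other way. It was the 1 member of the gluconeogenesis and glycogen list called higher in rotenone livers. The locus hnf4a Nfu_g_1_001809, a master transcription factor of hepatocytes, had 204, 156, 103, 148 and 96.5 CPM in the rotenone livers, against 167, 409.5, 495, 395 and 269 CPM in the 9-week livers. MR26 lay within the range of the 9-week livers, where MC1 was lowest, and the log2 fold changes were -1.296 ± 0.31 (SE, n = 5 each; adjusted p = 0.0145) with rotenone and -1.57 ± 0.31 with DMSO (adjusted p = 0.0105).

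The hepatocyte list as a whole had 2 of 29 members called higher and 4 lower (6.9% and 13.8%, beside 6.92% and 7.18% of all tested genes), at a median of -0.36 (-0.55 without MR26). Log2 fold changes of its members ranged from -1.33 to 3.38, and 5 were positive. The members described here, fga and hnf4a Nfu_g_1_001809, are among the 4 called lower, and the 2 called higher are not described. Its summed level was 109431 to 219126 CPM in rotenone livers and 64740.5 to 280581 CPM in 27-week DMSO livers, against 190906 to 322931 CPM in 9-week livers. fga Nfu_g_1_019236, a fibrinogen chain, had 4018, 3017, 2711, 2216.99 and 2124 CPM in the rotenone livers, against 5111, 7616, 5053, 6329.8 and 6762 CPM in the 9-week livers. For fga the log2 fold change was -1.13 ± 0.29 (SE, n = 5 each; adjusted p = 0.0196). f5 (Nfu_g_1_005675), coagulation factor V, had 705, 639, 800.3, 593 and 951 CPM in the rotenone livers, against 1352, 1526, 1164, 1492 and 1365 CPM in the 9-week livers. For f5 the log2 fold change was -0.90 ± 0.21 (SE, n = 5 each; adjusted p = 0.0144); with the length trend removed its adjusted p was 0.0588. Of the complement and coagulation list, 2 of 50 tested members rose and 2 fell, with a median log2 fold change of -0.25 (-0.47 without MR26); the shares called higher and lower were 4% and 4%, beside 6.92% and 7.18% of all tested genes. Without MR26, which had the highest hepatocyte sum of the rotenone livers, 8 hepatocyte genes and 8 complement and coagulation genes were called lower. Without each of the other 9 fish 2 or 3 hepatocyte genes were called lower. The apolipoproteins had 1 of 18 called higher and 3 lower (5.56% and 16.7%, beside 6.92% and 7.18% of all tested genes).

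The matrix genes that were called were mostly lower. Of the collagens and other matrix genes, 2 of 83 tested members rose and 10 fell, with a median log2 fold change of -0.49 (-0.26 without MC1). Called lower were 12% of the tested members, beside 7.18% of all tested genes. For the matrix list, against the 27-week DMSO livers 3 rose and 20 fell, with a median of -0.71, and between the 27-week and the 9-week DMSO livers 3 rose and 1 fell, with a median of 0.15. fn1b (Nfu_g_1_003374), a fibronectin, had 3113, 2570.1, 4134, 2043 and 2149.8 CPM in the rotenone livers, against 6647, 14257, 6477, 7264 and 9783 CPM in the 9-week livers. All rotenone livers were below all 9-week livers, and the log2 fold change was -1.67 ± 0.33 (SE, n = 5 each; adjusted p = 0.00607). COL12A1 Nfu_g_1_000084, a fibril-associated collagen locus, had 0.0954, 0.235, 1.78, 0.469 and 0.474 CPM in the rotenone livers, against 7.09, 14.2, 9.42, 4.03 and 8.77 CPM in the 9-week livers. For COL12A1 the log2 fold change was -3.82 ± 0.87 (SE, n = 5 each; adjusted p = 0.0125). lamb1b Nfu_g_1_011660, a basement membrane laminin, had 58.0 to 75.7 CPM in rotenone livers, against 90.3 to 113 CPM in 9-week livers. For lamb1b the log2 fold change was -0.62 ± 0.13 (SE, n = 5 each; adjusted p = 0.00761). mmp14a (Nfu_g_1_003657), a membrane-bound protease of matrix, had 2.50 to 3.79 CPM in rotenone livers, against 3.40 to 16.2 CPM in 9-week livers. For mmp14a the log2 fold change was -1.49 ± 0.33 (SE, n = 5 each; adjusted p = 0.0106). These are long transcripts: the median length of the tested members was 5514 nucleotides, against 2760 for all tested genes, and 8 members were called lower with the length trend removed. Among all tested genes over 5467 nucleotides, 446 of 3326 were called lower, and the part of length in the count of this list was not tested. Leaving out MR27 gave 5 members called lower and leaving out MR30 gave 6; with each of the other 8 compared fish left out, 7 to 11 were. tie1 (Nfu_g_1_002350), a receptor of blood vessel endothelium, had 19.7, 17.3, 20.8, 24.1 and 21.5 CPM in the rotenone livers, against 72.8, 43.8, 50.1, 56.4 and 69.5 CPM in the 9-week livers. For tie1 the log2 fold change was -1.5004 ± 0.24 (SE, n = 5 each; adjusted p = 0.00228). It was among the 2 of 20 endothelial markers called lower, which is 10%, beside 7.18% of all tested genes. Smooth muscle actin rose: acta2 (Nfu_g_1_000987) had 5.73, 20.7, 21.9, 22.9 and 13.6 CPM in the rotenone livers, against 2.19, 2.62, 4.03, 2.00 and 1.82 CPM in the 9-week livers. acta2 rose by 2.74 ± 0.37 (SE, n = 5 each; adjusted p = 0.00101), and tagln (Nfu_g_1_017009) rose by 1.04 ± 0.27 (SE, n = 5 each; adjusted p = 0.02, call lost without MR29). In 27-week DMSO livers, acta2 spanned 4.03 to 9.56 CPM and tagln 15.7 to 32.2 CPM, with log2 differences from 9-week livers of 1.58 ± 0.36 and 0.98 ± 0.26 (adjusted p = 0.0159 and 0.0282).

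Some red cell transcripts were called lower. hbaa1 Nfu_g_1_007654, an adult alpha globin, had 71.3, 53.3, 92.5, 114 and 78.1 CPM in the rotenone livers, against 199, 559, 695, 370.3 and 605 CPM in the 9-week livers, and the log2 fold change was -2.57 ± 0.71 (SE, n = 5 each; adjusted p = 0.0289, call lost without MR26, MR27, MR30, MC3 and MC5). Of the erythrocyte markers, 1 of 19 were called higher and 4 lower (5.26% and 21.1%, beside 6.92% and 7.18% of all tested genes). With single fish left out 1 to 3 were lower, the fewest without MR27, MR30 or MC5. Their sum was 934 to 1324 CPM in rotenone livers, against 1486 to 2797 CPM in 9-week livers. Immediate early genes, which are switched on within minutes of a stimulus, had 0 of 34 called higher and 4 lower. The 4 are 11.8% of the tested members, beside 7.18% of all tested genes. nr4a3 (Nfu_g_1_001278) had 1.05, 1.12, 1.46, 1.84 and 1.26 CPM in the rotenone livers, against 9.35, 2.12, 41.6, 16.4 and 4.24 CPM in the 9-week livers. For nr4a3 the log2 fold change was -3.44 ± 0.79 (SE, n = 5 each; adjusted p = 0.013). klf4 (Nfu_g_1_020234) had 1.00, 2.03, 1.53, 1.31 and 2.40 CPM in the rotenone livers, against 6.18, 3.17, 6.6003, 2.86 and 4.29 CPM in the 9-week livers. For klf4 the log2 fold change was -1.48 ± 0.36 (SE, n = 5 each; adjusted p = 0.0176), and in 27-week DMSO livers the log2 fold change was -1.47 ± 0.36 (adjusted p = 0.0211). Neither gene overlapped between the rotenone and 9-week livers. fosl2 fell with a log2 fold change of -1.36 ± 0.37 (SE, n = 5 each; adjusted p = 0.026, call lost without MR26, MR27, MR30, MC1 and MC3). The immediate early count called lower was 2 without MR27, MR30 or MC3.

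The largest rises were of genes that few livers carried, and several are not hepatocyte genes. Among the 12 largest, MUC19 (Nfu_g_1_010568), a gel-forming mucin, had 0.286, 29.5, 69.7, 70.26 and 4.42 CPM in the rotenone livers, against 0.641, 0.0833, 0.0714, 0.113 and 0.0404 CPM in the 9-week livers. tcnl (Nfu_g_1_016529), a transcobalamin-like vitamin B12 carrier, had 0.764, 43.2, 73.5, 64.0 and 7.61 CPM in the rotenone livers, against 0.0675, 0.708, 0, 0.113 and 0.162 CPM in the 9-week livers. chia.3 Nfu_g_1_007317, an acidic chitinase, had 1.91, 2.59, 139, 49.2 and 3.88 CPM in the rotenone livers, against 0, 0, 0.321, 0.490 and 0.364 CPM in the 9-week livers. slc12a1 Nfu_g_1_003285, a sodium-potassium-chloride cotransporter, had 0.191, 12.6, 26.9, 21.8 and 2.12 CPM in the rotenone livers, against 0.0675, 0.250, 0.0357, 0.188 and 0.0404 CPM in the 9-week livers. MR28 and MR29 were high for all 4, MR27 for all but chia.3, and MR30 lay between them and the 9-week livers. MR26 lay within the 9-week range for MUC19 and slc12a1 and just above it for tcnl. Log2 differences were 7.44 ± 1.24 for MUC19, 7.52 ± 1.48 for tcnl, 7.37 ± 1.82 for chia.3 and 6.75 ± 1.34 for slc12a1 (adjusted p = 0.0027, 0.00628, 0.0179 and 0.00641), and all 4 kept their call in the 10 fits without 1 library. These genes were near 0 CPM in 9-week livers, so they could reach the level required for naming mainly through 27-week livers. They were also chosen for keeping their sign in those fits, so the kept calls carry little weight. The 27-week DMSO livers held at most 0.589 CPM of MUC19. lgals2b Nfu_g_1_019860, a galectin, and MUC2 (1 of 3) (Nfu_g_1_008383), an intestinal mucin, also rose, by 5.995 ± 0.99 (SE, n = 5 each; adjusted p = 0.0026) and 6.97 ± 1.11 (SE, n = 5 each; adjusted p = 0.00221). apoea (Nfu_g_1_012304), an apolipoprotein E locus, had 29.7, 0.647, 26.1, 12.9 and 1.99 CPM in the rotenone livers, against 0.0675, 0.125, 0.499, 0.528 and 0.606 CPM in the 9-week livers. apoea rose by 5.28 ± 1.06 (SE, n = 5 each; adjusted p = 0.00661). Of the bile duct markers, 4 of 17 were called higher and 0 lower, among them krt18 Nfu_g_1_001656 at 3.25 ± 0.61 (SE, n = 5 each; adjusted p = 0.00515) and EPCAM (Nfu_g_1_014608) at 0.85 ± 0.24 (SE, n = 5 each; adjusted p = 0.0301, call lost without MR28, MR30, MC1, MC2 and MC4). The 4 are 23.5% of the tested markers, beside 6.92% of all tested genes. The bile duct count was 2 without MR28, MC1, MC2 or MC3 and 1 without MC4, and the summed level was 627 to 1203 CPM in rotenone livers, against 522 to 733 CPM in 9-week livers. In 27-week DMSO livers the bile duct sum was 780 to 1096 CPM, above the 9-week range, which the rotenone range overlapped. Median sums were 715 CPM in rotenone, 1045 CPM in 27-week DMSO and 585 CPM in 9-week livers. Between the DMSO groups 1 bile duct marker rose and 2 fell, with a median of -0.03. Intestine markers had 1 of 12 tested called higher and 1 lower (8.33% each, beside 6.92% and 7.18% of all tested genes). These markers had a median of 0.46, with 9 positive. Their summed level was 58.8 to 106 CPM in rotenone livers, against 39.9 to 62.1 CPM in 9-week livers. Of the 29 loci of the list, 5 had no reads in the rotenone livers and 5 had none in the 9-week livers. The part of intestine tissue in these values was not tested.

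Islet hormone transcripts formed a second group among the largest rises. Of the endocrine pancreas markers, 6 of 10 tested members rose and 0 fell, with a median log2 fold change of 4.16; between 27-week and 9-week DMSO livers 6 members rose, with a median of 4.16. The share called higher was 60%, beside 6.92% of all tested genes. The 15 loci of the list summed to only 4.32 to 12.0 CPM in 9-week livers. Members near 0 CPM there could pass the filter mainly through 27-week livers and had little room to fall. The count of 0 lower and the median therefore carry little weight. ins (Nfu_g_1_005279), preproinsulin, had 1.38, 136, 147, 26.1 and 0.569 CPM in the rotenone livers and 233, 0.318, 169, 5.40 and 8.16 CPM in the 27-week DMSO livers, against 0.304, 3.50, 0.0357, 0.264 and 0.970 CPM in the 9-week livers. gcgb (Nfu_g_1_017718), a glucagon gene, had 0, 51.2, 32.1, 15.1 and 0.347 CPM in the rotenone livers, against 0.135, 0.458, 0.0714, 0 and 0.202 CPM in the 9-week livers, and sst1.1 (Nfu_g_1_014237), somatostatin, had 0.477, 53.3, 65.3, 8.49 and 0.0948 CPM in the rotenone livers, against 0.0338, 0.583, 0, 0.0754 and 0.647 CPM in the 9-week livers. MR27, MR28 and MR29 were high in each, while MR26 and MR30 lay within the 9-week range for all 3, so the groups overlapped. The log2 differences were 6.84 ± 1.89 (SE, n = 5 each; adjusted p = 0.0285, call lost without MR27, MC1, MC3, MC4 and MC5) for gcgb, 6.61 ± 1.93 (SE, n = 5 each; adjusted p = 0.0355, call lost without MR27, MR28, MC1, MC2, MC3, MC4 and MC5) for sst1.1, 5.83 ± 1.72 (SE, n = 5 each; adjusted p = 0.0366, call lost without MR27, MR28, MR29, MC1, MC3, MC4 and MC5) for gcga and 5.95 ± 1.85 (SE, n = 5 each; adjusted p = 0.0447, call lost without MR27, MR28, MR29, MC1, MC3, MC4 and MC5) for ins. pcsk2, which processes these hormones, and pdx1, a pancreatic transcription factor, rose by 4.91 and 3.40. The call for pcsk2 was lost without MR27, MR28, MR29, MC1, MC3, MC4 and MC5, and that for pdx1 without MR27, MC1, MC3 and MC4. The list had 0 members called without MR27, MC1, MC3 or MC4. Summed over the list the level was 23.2, 398, 359, 94.0 and 8.59 CPM in rotenone livers and 622, 5.11, 528, 22.4 and 32.6 CPM in 27-week DMSO livers, against 5.03, 12.0, 4.32, 5.05 and 5.90 CPM in 9-week livers. Exocrine markers had 2 of 23 called higher, pla2g1b Nfu_g_1_006311 (pancreatic phospholipase) at 2.28 ± 0.61 (SE, n = 5 each; adjusted p = 0.0247, call lost without MR27, MC1, MC3 and MC4) and CELA1 (1 of 7) (an elastase) at 1.65 ± 0.51 (SE, n = 5 each; adjusted p = 0.0438, call lost without MR26, MR27, MR28, MR29, MC1, MC3 and MC4), and a median of 1.42; none was called without MR27, MC1, MC3 or MC4. The 2 exocrine calls are 8.7% of the tested markers, beside 6.92% of all tested genes. MR26 had the highest exocrine sum and an endocrine sum of 23.2 CPM.

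**Figure D4:**
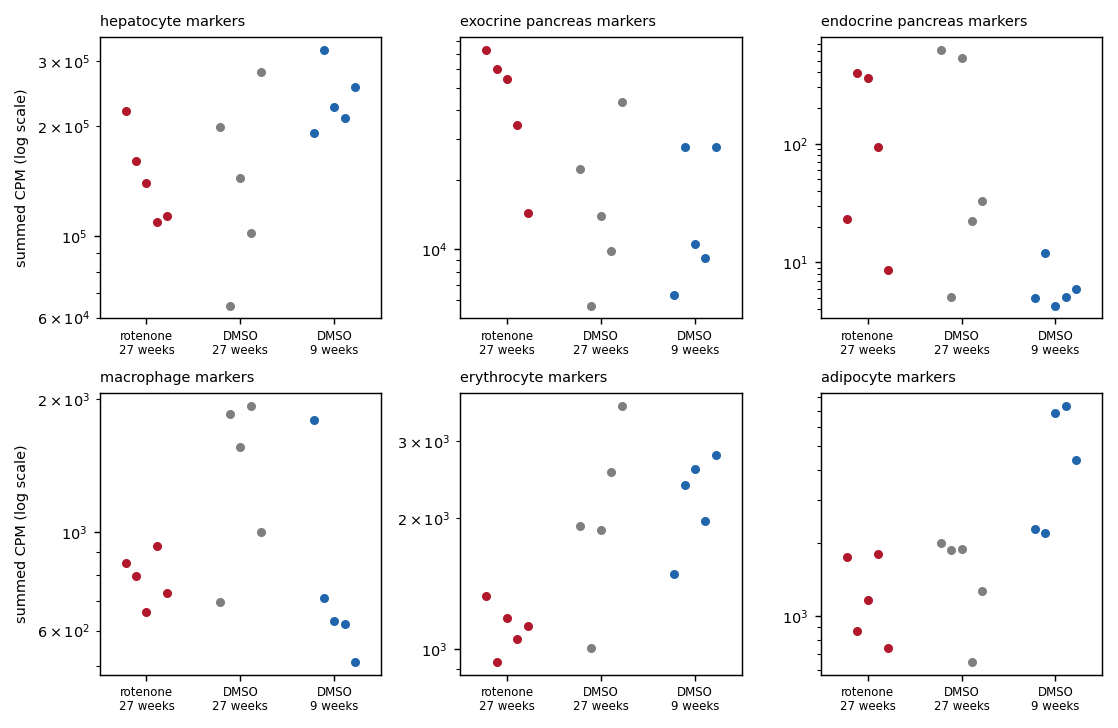
Summed CPM (vertical axis, log scale) of the markers of 6 cell types in each liver, with rotenone livers of 27 weeks on the left, DMSO livers of 27 weeks in the middle and DMSO livers of 9 weeks on the right; points are fish. Exocrine pancreas sums reach 73086 CPM in rotenone livers against 27782 CPM in 9-week livers, and endocrine sums range from 8.59 to 398 CPM in rotenone livers.

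The largest falls were also of genes with uneven levels. trdn Nfu_g_1_018768, triadin of muscle calcium release, had 0.0477, 0.0882, 0.0357, 0 and 0.0316 CPM in the rotenone livers, against 10.6, 0.375, 55.0, 6.71 and 2.304 CPM in the 9-week livers. For trdn the log2 fold change was -8.49 ± 1.42 (SE, n = 5 each; adjusted p = 0.00269). adcy2a Nfu_g_1_001711, an adenylate cyclase, had 0.191, 0.176, 0.499, 0.429 and 0.0948 CPM in the rotenone livers, against 45.2, 0.167, 17.2, 49.8 and 89.7 CPM in the 9-week livers; MC2 was as low as the rotenone livers, and the log2 fold change was -7.13 ± 1.25 (SE, n = 5 each; adjusted p = 0.00341). inab (Nfu_g_1_015816), an intermediate filament protein, had 3.20, 2.03, 4.60, 2.51 and 0.790 CPM in the rotenone livers, against 11.8, 142, 31.3, 16.5 and 60.2 CPM in the 9-week livers. For inab the log2 difference was -4.32 ± 0.88 (SE, n = 5 each; adjusted p = 0.0072). Of the other large falls, cilp had a log2 fold change of -4.22, itgb3b Nfu_g_1_023339 of -3.94, call lost without MR26, MR27, MR30 and MC2, herc2 Nfu_g_1_014732 of -3.72 and mll4b Nfu_g_1_002217 of -3.47. herc2, a ubiquitin ligase of very large size, had 0.334, 0.647, 6.03, 4.20 and 1.61 CPM in the rotenone livers, against 31.1, 40.2, 34.7, 29.7 and 34.8 CPM in the 9-week livers, and mll4b, a histone methyltransferase, had 0.191, 0.382, 2.46, 1.63 and 0.6001 CPM in the rotenone livers, against 16.4, 16.4, 10.2, 5.80 and 10.4 CPM in the 9-week livers. In both, the rotenone livers lay below all 9-week livers and MR28 and MR29 were the highest of them. trdn and inab were low in 27-week DMSO livers too, at 0 to 0.616 and 0.681 to 17.5 CPM.

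Other lists had few calls in number, and several of these counts changed with single fish left out. Of all tested genes, 6.92% were called higher and 7.18% lower. Higher and lower counts were 1 and 0 of 28 for glycolysis, 1 and 2 of 17 for gluconeogenesis and glycogen, and 2 and 1 of 22 for bile acid and xenobiotic metabolism. They were 2 and 1 of 25 for p53 targets and DNA damage, 2 and 0 of 19 for one-carbon and serine synthesis, and 4 and 1 of 31 for the cytoskeleton and smooth muscle. No acute phase gene (19 tested) and no interferon response gene (28 tested) was called by edgeR, with medians of -0.09 and -0.05, which without MC1 were 0.25 and 0.58. Without MC1 or MC2, 1 interferon gene was called higher; 0 acute phase and 2 interferon genes had p under 0.05 before adjustment, and 0 were called by DESeq2. Of the markers of other cells, stellate and fibroblast had 1 higher and 0 lower of 19, macrophage had 1 higher and 0 lower of 30, neutrophil had 0 higher and 0 lower of 11, T and NK cell had 1 higher and 1 lower of 14, B and plasma cell had 0 higher and 0 lower of 16. Called higher were 5.26% of the stellate and fibroblast, 3.33% of the macrophage and 7.14% of the T and NK cell markers. Called lower were 7.14% of the T and NK cell markers. Beside the neutrophil and B and plasma cell counts of 0, 3 neutrophil and 0 B and plasma cell markers had p under 0.05 before adjustment, and DESeq2 called 0 and 1 of them. The T and NK cell member called higher, CD3EAP, is a subunit of RNA polymerase I in mammals. Macrophage markers had a median of -0.57 (0.36 without MC1), in the fit of all libraries opposite in sign to the 1 member called higher, with sums of 662 to 929 CPM in rotenone livers, against 510.2 to 1793 CPM in 9-week livers. Counts higher and lower were 1 and 1 of 32 for skeletal muscle, 0 and 1 of 6 for adipocyte, 1 and 0 of 6 for estrogen and egg yolk, 0 and 0 of 3 for germ cell, 3 and 1 of 11 for kidney and 0 and 1 of 21 for neural markers. Called higher were 27.3% of the kidney, 16.7% of the estrogen and egg yolk and 3.12% of the skeletal muscle markers. Called lower were 9.09% of the kidney, 16.7% of the adipocyte, 4.76% of the neural and 3.12% of the skeletal muscle markers. The kidney markers called higher included slc12a1 Nfu_g_1_003285, one of the largest rises. With single fish left out, 1 to 3 kidney markers were called higher. Of the 3 germ cell markers, 1 had p under 0.05 before adjustment, and DESeq2 called 1.

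Untreated fish of the same series gave a view of age with no library in common. Their livers, 5 at each of 5, 12, 20, 27 and 39 weeks, do not include 9 weeks, so 27 weeks was compared with 12 and 5 weeks, the ages on either side of 9 weeks. Between 27 and 12 weeks edgeR called 0 of 17618 genes, with 2056 at an unadjusted p under 0.05, and DESeq2 called 77; between 27 and 5 weeks edgeR called 1767, or 10%, with 953 higher (5.41%) and 814 lower (4.62%). Of the 2361 genes called in the main comparison, 2339 were tested in both arms. 1473 of them (63.0%) had the same sign in untreated 27 minus 12 weeks, beside 50.8% of all 16547 genes tested in both. For 27 minus 5 weeks it was 893 (38.2%), beside 43.0% of all genes; 103 were called there in the same direction and 197 in the opposite one. Of the genes called higher in rotenone livers, 29.6% were also higher at 27 than at 5 weeks, and 149 were called lower there.

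The list medians in untreated livers are set beside those of the treatment arm. For mitochondrial ribosomal proteins the median was -0.06 in 27 minus 12 weeks and -0.51 in 27 minus 5 weeks, where 11 fell and 0 rose. For the nuclear subunits of complex I the medians were -0.37 and -0.23, and for the proteasome 0.17 and -0.71. Cell cycle and replication genes had medians of 0.90 and -1.86, with 52 of 101 lower at 27 than at 5 weeks. For autophagy and lysosome the medians were 0.30 and 0.21, and for the growth hormone, insulin and IGF axis 0.11 and 0.36. Single genes low in both old groups of the treatment arm were not uniformly low in old untreated livers: pcyt1bb had log2 fold changes of -2.27 ± 1.07 and -4.93 ± 1.19, apobl -1.34 ± 0.61 and -1.96 ± 0.62, and hnf4a Nfu_g_1_001809 0.20 ± 0.42 and 1.26 ± 0.43, in 27 minus 12 and 27 minus 5 weeks. Of these, pcyt1bb and apobl were called in 27 minus 5 weeks (adjusted p = 0.014 and 0.0454). cox6b2, higher in both old groups of the treatment arm, was higher by 1.44 ± 0.38 in untreated 27-week than in 5-week livers (adjusted p = 0.0223). Whether the differences between the 2 arms exceed chance was not tested.

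**Figure D5:**
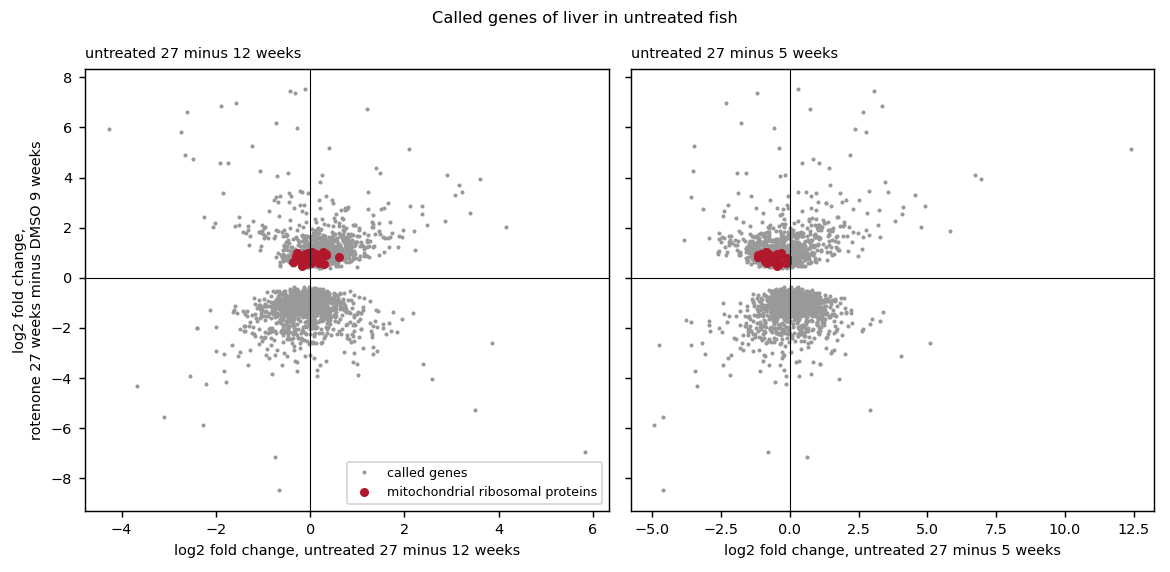
Log2 fold change of the genes called between rotenone 27 weeks and DMSO 9 weeks (vertical axis) against their log2 fold change in untreated livers (horizontal axis), 27 minus 12 weeks on the left and 27 minus 5 weeks on the right; grey points are called genes and red points are called mitochondrial ribosomal proteins. The red points, all above 0 on the vertical axis, lie left of 0 in the right panel, where the median of all tested members of the list was -0.51.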

How the data were processed

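Tests ran on the authors' deposited read counts per gene. The RPKM table, which the authors scaled by length and depth per the file headers, served to recover gene lengths. Per the labels, total RNA isolated with QIAzol was made into TruSeq libraries. Per the submitters' processing notes, the tools were CASAVA 1.8.0 and 1.8.2, bcl2fastq 1.8.4, TopHat2 2.0.6 and featureCounts 1.4.3-p1. Genome build, annotation and strand setting: not given in the sources used here. Of 23564 loci, 9479 have a symbol that occurs more than once, so every value belongs to a locus, and those of such copies are uncertain where their reads could be split.

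One edgeR model (4.0.16, in R 4.3.3) covered the 15 livers of the treatment arm, with 26.5 to 39.7 M counts each. It used a mean for each group, TMM scaling, the filterByExpr filter and the robust quasi-likelihood test. A Benjamini-Hochberg adjusted p under 0.05 was called, and all printed adjusted p-values come from this test. The SE is the log2 fold change divided by the square root of the F statistic. The 25 untreated livers were fitted apart in the same way. CPM are counts per 1e6 of the TMM-scaled library. The fit was tested on simulated data. Alternatives were DESeq2 1.42.0, other filters and scalings, the compared groups alone, a length correction and each library left out.

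Members and the 51 gene lists were chosen with earlier results of these data known, and the lists were written from general knowledge. Named genes are the 12 largest rises and falls, the 10 smallest p, up to 4 called members of each list, up to 6 genes also called against 27-week DMSO livers, and 4 complex I subunits. Other list members, marker loci and ends of ranges that are named were chosen after their values were seen, and mitochondrially encoded genes were matched by aliases added after the files were seen. Samples of a group are separate fish, so p-values measure the spread between fish.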

Additional observations from a re-analysis of the deposited data

Results flagged for a closer look

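Of 378 groups of 5 livers tested for a lowest or highest liver that stood apart, 19 did so, and chance alone marks about 5% of groups. The 19 are near that share, so no single flag below marks a liver as unusual by itself. Among rotenone livers, MR26 was high for NDUFC2 (132.8 CPM, against 53.9 to 66.2 CPM in the other 4), hspe1 (165 CPM), polr1c (57.3 CPM) and si:ch211-154o6.6 (178 CPM, against 10.4 to 14.2 CPM), and MR28 was low for pcca (32.2 CPM). In 27-week DMSO livers, MC9 was low for tbcelb (6.30 CPM) and herc2 Nfu_g_1_014732 (3.07 CPM) and high for vars (81.9 CPM). MC10 was high there for mrps30 (16.5 CPM), MC6 low for imp3 (4.66 CPM) and MC7 low for tyms (3.20 CPM). In 9-week livers, MC1 was low for mrps23 (19.5 CPM), wdr36 (12.2 CPM) and vars (20.8 CPM), and high for MUC19 (0.641 CPM) and for summed macrophage markers (1793 CPM). MC5 was high there for pold3 (3.32 CPM), MC2 low for adcy2a Nfu_g_1_001711 (0.167 CPM) and MC3 low for cilp (0.607 CPM).

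A further 14 genes separated rotenone from 9-week livers in one direction and untreated 27-week from 5-week livers in the other, without overlap in either arm. All 14 were higher in rotenone livers. They come from the genes named for a small p in the main comparison, and no share over all tested genes is given beside them. A call in untreated livers was not required. Their log2 fold changes in untreated 27 minus 5 weeks were -1.45 for sephs1, -0.72 for mrps5, -0.97 for mrps30, -0.85 for mrps10, -1.16 for acad9, -1.53 for hspd1 and -1.56 for stip1. They were -0.82 for cct5, -0.64 for psma1, -0.31 for pomp, -0.87 for PSMG4, -1.47 for tyms, -2.49 for mcm7 and -1.86 for pold3. The difference between the arms was not tested.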

How the results depend on the processing

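No paired analysis was possible because fish codes do not recur between the compared groups. The main comparison gave 2361 calls and DESeq2 gave 3576; RLE scaling, other filters, the compared groups alone and the removal of a length trend (chosen after seeing the data) gave 1951 to 2398. With each library of the arm left out it gave 1283 to 2699. The count with the same sign in untreated livers, 1473 for 27 minus 12 weeks, ranged from 833 to 1636 so, and that for 27 minus 5 weeks, 893, from 476 to 1035, with 1415 under DESeq2. The lowest counts, 833 and 476, came from the fit without MR27, which called 1283 genes in all. They are counts among fewer calls, not shares. Between 27-week and 9-week DMSO livers, DESeq2 called 3333 genes and a fit of these groups alone 1279, and leaving out libraries gave 737 to 3894. Between rotenone and DMSO livers of 27 weeks the range was 2740 to 5104. In untreated livers, 27 minus 12 weeks gave 77 calls with DESeq2, and 27 minus 5 weeks gave 2946 with DESeq2, 697 with these ages alone and 776 to 3636 with libraries left out. Of 115 genes chosen for the text, 82 kept their sign and call in every alternative that gave a value, 83 were called in all 10 fits without 1 compared library, and none changed sign. Most were chosen for a small p, or for large changes that kept their sign in those 10 fits, so their stability was partly built in. The causes of the other changes were not tested. Depth limits the genes under 1 CPM in one group, whose fold changes rest on few reads.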
